A study of Mus musculus with 2 samples.

Results

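Collagen genes were described in the spleen of newborn mice. The family was taken as every protein-coding gene with a mouse symbol of the form Col, a type number, the letter a and a chain number, and it held 44 of the 43346 genes measured, or of 21474 protein-coding genes. These 44 genes covered 27 collagen types and lay on 15 chromosomes. Whole spleens of the B6NCrl strain were taken at postnatal day 0 from pups of 1 pregnancy, with 1 library of total RNA per spleen, so the series held 1 group of 2 libraries and no treatment, genotype or second tissue. Replicate 1 was pup 2 and replicate 2 was pup 1, per the labels, and their sex was not recorded. The donor identifier is identical for both, although separate pups are named. The RNA was longer than 200 nt, and 10 ng entered each library. The libraries held 33121414 and 32161687 estimated gene counts in replicates 1 and 2. Every difference below is a difference between 2 libraries of 2 littermates. It has no replicate check, and no p-value was computed.

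Collagens are secreted proteins whose chains wind around each other in threes, and each chain carries long stretches of a repeating triplet that begins with glycine. Fibril-forming collagens (types I, II, III, V, XI, XXIV and XXVII) build the fibers that give tissue its tensile strength. Type IV collagen forms the sheet-like network of basement membranes, type VI forms beaded microfibrils around cells, and the FACIT collagens (fibril-associated collagens with interrupted triple helices) sit on fibril surfaces. In the spleen, collagen fibers run in the capsule and trabeculae. Reticular fibers, rich in type III collagen, form the scaffold that carries blood and immune cells, and basement membrane material surrounds vessels and sinuses. Markers of the labelled tissue were present: the spleen mesenchyme transcription factor genes Tcf21, Tlx1 and Nkx2-5 stood at 114, 15.5 and 15.02 TPM (a level scaled to transcript length and to the library's total) in replicate 1 and at 135, 24.1 and 20.5 TPM in replicate 2.

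The coding sequences show the structural difference between the main classes. Both stretches below come from GENCODE M21 transcripts on GRCm38, 90 bases each, in frame. Capitals mark glycine codons that stand 3 codons apart from another one in a run of at least 5 triplets. Codons 164 to 193 of Col3a1, within its longest run, and codons 148 to 177 of Col4a1, across a break between runs, are shown because the unbroken and the interrupted pattern separate fibril-forming from basement membrane chains.
Col3a1: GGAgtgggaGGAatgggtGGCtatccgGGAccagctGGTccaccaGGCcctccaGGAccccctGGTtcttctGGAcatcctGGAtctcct
Col4a1: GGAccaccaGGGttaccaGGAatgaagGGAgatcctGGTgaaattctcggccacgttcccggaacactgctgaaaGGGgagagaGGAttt
In Col3a1 every triplet shown opens with a glycine codon, while in Col4a1 the pattern stops for several codons and then resumes.

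Over the family, the longest unbroken run had 344 triplets in Col3a1 and between 337 and 339 in the other chains of types I, II, V and XI. The fibril-forming genes Col27a1 and Col24a1 had 217 and 216. The 6 type IV chains had a longest run of 39 to 66 triplets and 22 to 27 runs each, although 75.4% to 80.0% of their codons lay in runs. Type IX chains and Col22a1 reached 113 triplets. Col7a1, the anchoring fibril chain that ties epidermal basement membrane to the dermis, had 20 runs with a longest of 75. Col12a1 had the smallest share of codons in runs, 8.22%. The fibril-forming class therefore stood apart by the length of its runs and not by the share of codons in them.

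**Figure D1:**
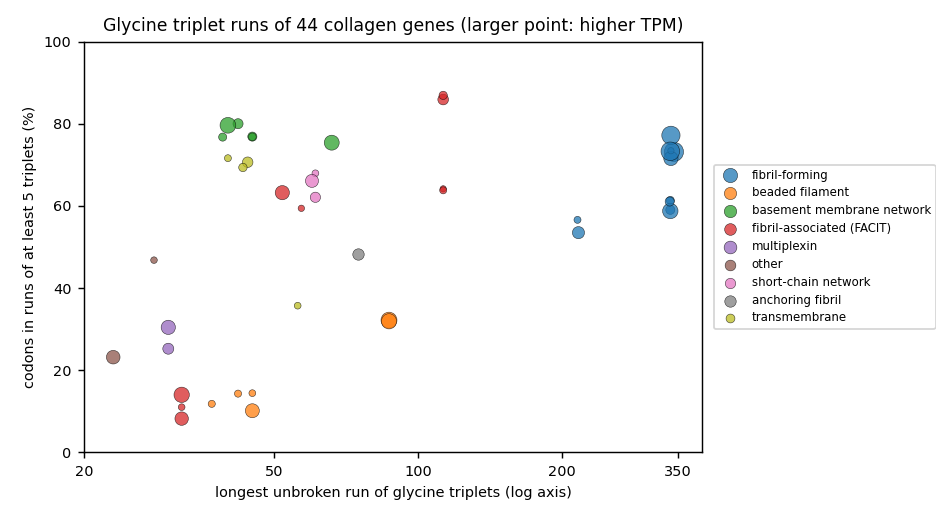
Longest unbroken run of glycine triplets (horizontal, log axis) against the percent of codons in runs of at least 5 triplets (vertical) for the 44 collagen genes, 1 point per gene, colored by class and larger with higher TPM. The fibril-forming chains lie at 216 to 344 triplets, to the right of every other class, and the 6 type IV chains lie at 39 to 66.

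Of the 44 genes, 26 reached 1 TPM in both libraries, or 59.1%, beside 55.6% of all protein-coding genes (11932 of 21474). These 26 genes belonged to 17 types, and 10 types had no member at that level. The summed level of the family was 920 TPM in replicate 1 and 1227 TPM in replicate 2 (1073 ± 217, mean ± SD, n = 2), or 0.0920% and 0.123% of all TPM. By estimated counts, which weight long genes more, the family held 0.432% and 0.562% of gene counts. Type III and type I collagen dominated: Col3a1, Col1a1 and Col1a2 together held 67.3% and 70.4% of the family's TPM. In bulk tissue, fewer cells of a type and less RNA per cell cannot be told apart.

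**Figure D2:**
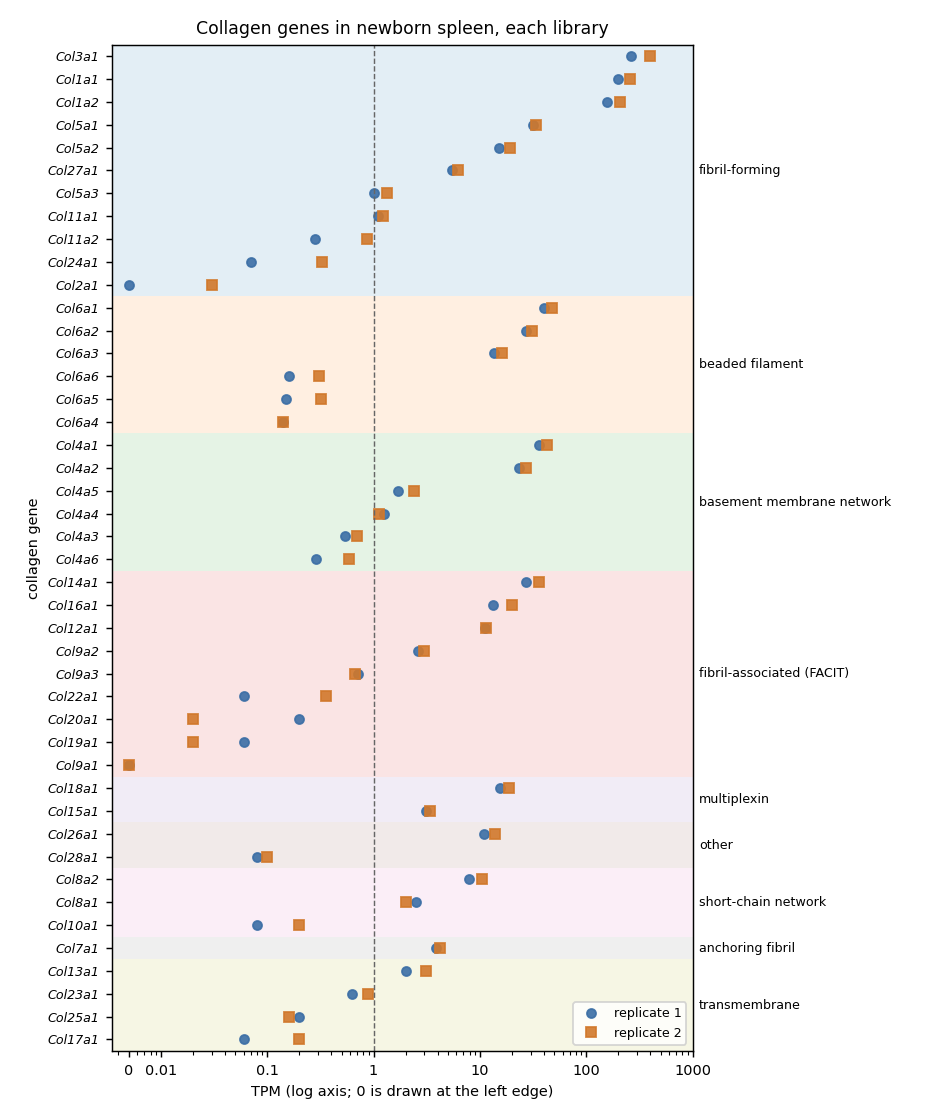
TPM (log axis, 0 drawn at the left edge) of each of the 44 collagen genes in replicate 1 (circles) and replicate 2 (squares), grouped by structural class. The dashed line marks 1 TPM, and Col3a1, Col1a1 and Col1a2 stand to the right of all other genes.

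Among the fibril-forming collagens, Col3a1, the only chain of type III collagen and the main chain of reticular fibers, had the highest level. Its TPM was 264 in replicate 1 and 398 in replicate 2 (331 ± 94.2, n = 2), and it ranked 283 among protein-coding genes (chr1:45311538-45349706, GRCm38, plus strand). Col1a1, which encodes the major chain of type I collagen, followed with 198 and 258 TPM (228 ± 42.5, rank 438, chr11:94936224-94953042, plus strand). Its partner Col1a2 had 157 and 209 TPM (183 ± 36.3, rank 549, chr6:4504814-4541544, plus strand). All 3 genes were higher in replicate 2 on this scale. The order of Col3a1, Col1a1 and Col1a2 was the same in both libraries, but the value of Col1a1 in replicate 2 was close to that of Col3a1 in replicate 1, so the spread between libraries was about as large as the gap between those genes.

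Type V collagen, a minor component that starts type I fibrils, came next in this class. Col5a1 had 31.6 and 33.9 TPM, and Col5a2 had 14.99 and 19.2 TPM. Col27a1, a fibrillar chain best known from cartilage, had 5.43 and 6.21 TPM. Col5a3 (1.02 and 1.35 TPM) and Col11a1 (1.09 and 1.22 TPM) lay just above the detection level. By long coding transcripts alone they had 0.97 and 1.32 TPM, and 0.56 and 0.89 TPM. Col11a2 and Col24a1 lay below it in both libraries, at 0.28 and 0.86 TPM and at 0.07 and 0.33 TPM. Col2a1, the cartilage collagen, had 0 counts in replicate 1 and 4 counts in replicate 2. The 7 cartilage and bone markers searched were also low, with none detected in both libraries, a sum of 1.65 and 2.17 TPM and Ibsp at 0 in both. With 8 of its 11 genes detected, the fibril-forming class summed to 674 and 927 TPM, which was 74.4% ± 1.64 of the family's TPM.

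The basement membrane chains were led by the pair that is present in nearly all basement membranes. Col4a1 had 35.8 and 43.1 TPM (39.5 ± 5.15), and Col4a2 had 23.3 and 27.3 TPM (25.3 ± 2.87). Of the chains known from more specialized membranes, such as those of the kidney glomerulus, Col4a5 had 1.69 and 2.40 TPM and Col4a4 had 1.26 and 1.13 TPM. By long coding transcripts alone they had 0.80 and 1.12 TPM, and 0.49 and 0.71 TPM. Col4a3 (0.54 and 0.70 TPM) and Col4a6 (0.29 and 0.59 TPM) stayed below 1 TPM. The class summed to 62.9 and 75.3 TPM, or 6.48% ± 0.494 of the family. Endothelial cells make basement membrane, and all 6 of their markers were detected, with a summed level of 227 and 274 TPM. Which cell types the type IV messages came from was not tested.

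Type VI collagen, the beaded filament class, was represented by its 3 classical chains. Col6a1 had 40.3 and 47.5 TPM, Col6a2 had 27.1 and 31.1 TPM, and Col6a3, which carries a much larger protein, had 13.7 and 16.1 TPM. The later-described chains Col6a4, Col6a5 and Col6a6 lay between 0.14 and 0.32 TPM in both libraries. The estimated counts of Col6a5 and Col6a6 were not whole (44.5 and 43.5 in replicate 1, 76.7 and 79.3 in replicate 2) but added up to whole numbers in both libraries. Reads may have been divided between them, and their values are uncertain one against the other. The class held 8.32% ± 0.764 of the family's TPM.

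The FACIT class and the smaller classes followed. Col14a1, which coats type I fibrils, had 26.9 and 36.0 TPM. Col16a1 had 13.3 and 20.2 TPM, and Col12a1, a large fibril-surface chain of dense connective tissue, had 11.1 and 11.3 TPM. Col9a2 had 2.59 and 2.97 TPM, whereas its partners in type IX collagen were lower, with Col9a3 at 0.71 and 0.67 TPM and Col9a1 at 0 counts in both libraries. That count of 0 allows up to 0.0906 and 0.0933 CPM (counts scaled to library size; 3 counts, counting error alone). Col19a1, Col20a1 and Col22a1 ranged from 0.02 to 0.36 TPM. The FACIT class held 5.90% ± 0.0911 of the family.

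Both multiplexins, basement membrane collagens that carry sugar chains, were detected. Col18a1, whose protein is the source of endostatin, had 15.5 and 18.7 TPM, and Col15a1 had 3.12 and 3.38 TPM. By long coding transcripts alone Col15a1 had 0.89 and 1.12 TPM, so its detection in replicate 1 rested on short coding models. Col26a1 had 10.9 and 13.9 TPM, while Col28a1 had 0.08 and 0.10. In the short-chain class, Col8a2 had 7.91 and 10.5 TPM and Col8a1 had 2.48 and 2.02 TPM. Col10a1, the marker of hypertrophic cartilage, had 0.08 and 0.20 TPM. Col7a1 had 3.86 and 4.26 TPM beside few epidermal markers: 1 of 4 was detected, Krt14, at 8.82 and 6.39 TPM, and Krt5 had 0.09 and 0.05. The transmembrane collagens had 1 detected gene of 4, Col13a1, at 2.04 and 3.11 TPM. Col23a1 (0.63 and 0.89 TPM) lay below the detection level and, of the genes not detected, had the highest mean, and Col25a1 and Col17a1 ranged from 0.06 to 0.20 TPM.

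**Figure D3:**
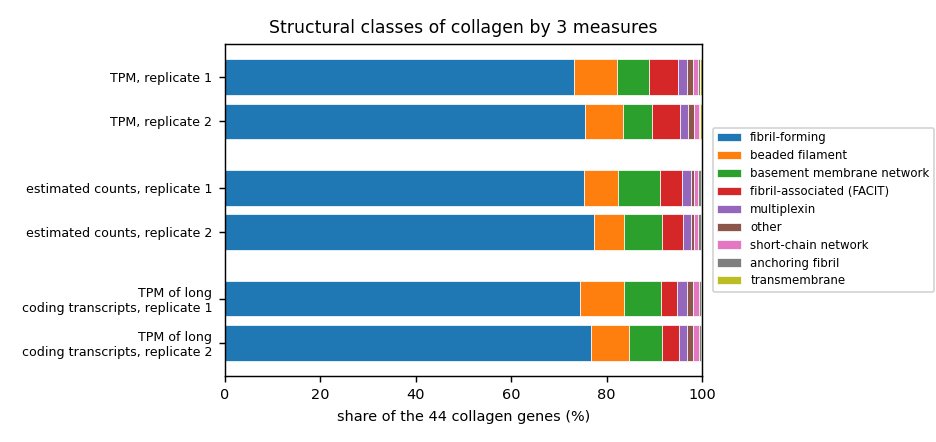
Share of each structural class in the family's total (percent, stacked to 100) in each library, by TPM, by estimated counts and by TPM of long coding transcripts only. Fibril-forming collagens hold over 73% in every bar; by estimated counts the basement membrane class is larger than the beaded filament class, and by TPM it is smaller.

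The most abundant partner chains had similar ratios in both libraries. The TPM ratio of Col1a1 to Col1a2, whose protein chains are joined with more of the former, was 1.26 in replicate 1 and 1.24 in replicate 2 (SD 0.0154, n = 2). Col4a1 over Col4a2 gave 1.54 and 1.58, and Col6a1 over Col6a2 gave 1.48 and 1.53. Col5a1 over Col5a2 differed more by gene TPM, at 2.10 and 1.77. By TPM of long coding transcripts it was nearly equal, at 1.695 and 1.700, and by estimated counts it was 2.20 and 2.16. Of the ratios with a chain at low level, some were similar and some were not. Col5a2 over Col5a3 gave 14.7 and 14.2, and Col4a1 over Col4a3 gave 66.4 and 61.6. Col4a5 over Col4a6 differed more, at 5.83 and 4.07, as did Col8a1 over Col8a2, at 0.314 and 0.193. Whether messenger ratios carry over to protein cannot be read from these data.

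A ratio that held between libraries was not always a ratio of full-length messages. Col6a1 over Col6a3 was 2.95 in both libraries by gene TPM. By TPM of long coding transcripts, defined as coding transcripts at least 75% as long as the gene's longest, it was 7.73 and 7.42. Most of the difference lies in Col6a3-206, a retained-intron fragment of 646 nt, to which the authors' table gave 53.1% and 50.9% of the gene's TPM but 7.3% and 6.9% of its counts. TPM divides by length, so a few reads on a short model give a high value.

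Of the 17 genes with a mean of at least 5 TPM, 6 had under 75% of TPM in long coding transcripts on average: Col3a1, Col6a3, Col12a1, Col14a1, Col16a1 and Col27a1. For Col3a1, the full-length Col3a1-201 held 73.9% and 75.02% of TPM and the 737 nt coding fragment Col3a1-205 held 24.7% and 23.4%, although Col3a1-201 held 96.1% of the gene's counts on average. With long coding transcripts alone, Col3a1 had 195 and 298 TPM beside 197 and 258 for Col1a1, so the first place of Col3a1 in replicate 1 rested on the fragment. Col12a1 depended most on short models: Col12a1-201, of 11511 nt, held 20.0% and 20.4% of TPM, and the long coding level of the gene was 2.30 TPM on average against 11.2 for all transcripts. Col16a1 fell from 16.8 to 7.34 TPM on average, Col6a3 from 14.9 to 5.80, Col27a1 from 5.82 to 1.90 and Col14a1 from 31.4 to 18.99 when only long coding transcripts were summed. By contrast, Col1a1, Col6a1, Col4a1, Col4a2 and Col8a2 had at least 99.6% of TPM in long coding transcripts in both libraries.

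**Figure D4:**
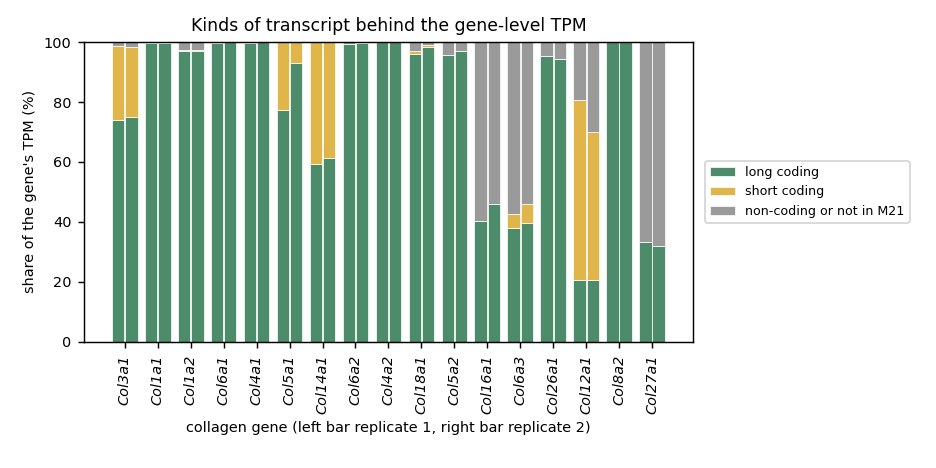
Percent of each gene's TPM in long coding transcripts, in short coding transcripts and in non-coding or unmatched transcripts, for the 17 collagen genes of at least 5 TPM (left bar replicate 1, right bar replicate 2). Col12a1 and Col27a1 have the lowest long coding shares, and the long coding share differs most between the libraries for Col5a1, where Col5a1-202 held 22.8% in replicate 1 and 6.87% in replicate 2.

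Most of the Col18a1 TPM was assigned to transcript models of 1 of 2 annotated start regions, and start sites themselves were not measured. Transcript Col18a1-202, with a RefSeq start at position 77166530 of chromosome 10, held 92.8% and 91.5% of the gene's TPM (92.2% ± 0.911). Col18a1-201 and Col18a1-203, whose starts lie within 500 nt of the RefSeq start at 77113705, 52825 nt downstream, held 3.36% and 6.91% together. The start at 77166530 is the one described next. The region of 232 bases before that start that lies outside annotated exons is printed from RefSeq (GRCm38.p6, minus strand, chr10:77166549-77166780), since it lies before the annotated start of the leading transcript, Col18a1-202. Capitals mark the motifs CCAAT and GGGCGG or their reverse complements.
Col18a1: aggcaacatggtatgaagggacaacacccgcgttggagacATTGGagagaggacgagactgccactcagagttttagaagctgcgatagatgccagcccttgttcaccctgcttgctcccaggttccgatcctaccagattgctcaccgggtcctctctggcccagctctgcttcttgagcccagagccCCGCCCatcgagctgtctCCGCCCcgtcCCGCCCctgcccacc
The stretch holds 1 match to CCAAT, in reverse as ATTGG, and 3 to GGGCGG, all in reverse as CCGCCC.

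Several collagen genes are neighbors. With 250000 nt as the limit, 15 of the 44 genes formed 9 pairs: 3 head to head, all of type IV, 4 on the same strand, all of type VI, and 2 tail to tail. Col4a1 and Col4a2 overlap by 22 nt at their starts and had 35.8 and 43.1 against 23.3 and 27.3 TPM. Col4a4 and Col4a3 lie 71 nt apart, with both between 0.54 and 1.26 TPM, and Col4a6 and Col4a5 lie 1308 nt apart, with 0.29 and 0.59 against 1.69 and 2.40 TPM. The tail-to-tail pair of Col3a1 and Col5a2 is separated by 24614 nt and differed widely in level, with 264 and 398 against 14.99 and 19.2 TPM. The shared start of Col4a1 and Col4a2 is printed because both annotated starts lie within it in opposite directions (chr8:11312801-11312830, RefSeq, GRCm38.p6, plus strand). Capitals run from one start to the other, a distance of 21 nt.
Col4a2: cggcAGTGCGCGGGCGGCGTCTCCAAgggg

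Promoter windows of 300 bases (250 before the start and 50 after) were in the RefSeq table for 35 of the 44 genes, with 38 windows in all, and the windows of Col1a1, Col2a1, Col4a3, Col5a2, Col9a3, Col12a1, Col14a1, Col22a1 and Col26a1 were not in it. Searched on both strands, TATAAA was in 5 of the 38 windows (13.2%, beside 13.6% of all 32851 windows), CCAAT in 13 (34.2%, beside 37.4%) and GGGCGG in 23 (60.5%, beside 35.7%). The windows of Col4a1 and Col4a2 share 78 bases, which hold the only GGGCGG match of Col4a1. The windows of Col6a2 also overlap, so some bases were counted in more than 1 window. The highest gene with a window, Col3a1, had TATAAA, no GGGCGG and a G and C content of 37.7%. The window of Col1a2 had no TATAAA, 2 matches each to CCAAT and GGGCGG and a G and C content of 61.0%. Their bases outside annotated exons are shown because these strongly expressed genes differ in every motif searched (Col3a1 chr1:45311288-45311537 and Col1a2 chr6:4505370-4505492, both plus strand, GRCm38.p6). Capitals mark the matches.
Col3a1: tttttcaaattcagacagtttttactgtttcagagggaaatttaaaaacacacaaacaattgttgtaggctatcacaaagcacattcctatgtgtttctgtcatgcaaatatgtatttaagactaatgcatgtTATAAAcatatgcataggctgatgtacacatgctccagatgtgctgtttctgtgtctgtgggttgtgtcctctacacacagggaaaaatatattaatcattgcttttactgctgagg
Col1a2: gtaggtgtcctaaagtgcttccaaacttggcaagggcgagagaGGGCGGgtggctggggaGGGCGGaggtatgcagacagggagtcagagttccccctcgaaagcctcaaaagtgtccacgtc
The CCAAT matches of Col1a2 lie in the part of its window that is not printed, and its RefSeq start is 125 nt from that of Col1a2-201 in GENCODE M21. The matches are descriptions of letters in these windows, not binding sites.

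Between the libraries, most collagen genes were slightly higher in replicate 2. For this comparison estimated counts were scaled by TMM, a factor that centers most genes on no difference. Of the 35 collagen genes that averaged 20 counts or more, 32 were higher in replicate 2 at any size, beside 51.1% of the 15506 genes tested. The median fold of replicate 2 over replicate 1 was 1.17, beside 1.00 for all genes tested. Among genes with at least 1000 counts, where counting error is small, 14 of 15 collagen genes were higher in replicate 2 with a median fold of 1.15, beside 34.8% of 6017 genes with a median fold of 0.949. The genes share the same 2 libraries and are not independent of each other.

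The difference was largest in size among the abundant genes for Col3a1. Its counts were 35072 and 50388, a fold of 1.38 with a lower bound of 1.36 (95% exact interval of the 2 counts by Clopper-Pearson). Col1a1 and Col1a2 had folds of 1.18 and 1.20, Col14a1 of 1.24 and Col16a1 of 1.31. Intervals of 22 genes lay above 1, that of 1 gene lay below 1, and those of 12 held 1. The gene below was Col8a1, with 391 and 301 counts and a fold of 0.741 (0.635 to 0.862). Its partner Col8a2 went the other way, with 1056 and 1316 counts and a fold of 1.20. Closest to equal were Col27a1 (1.03), Col6a2 (1.04), Col15a1 (1.04), Col4a2 (1.06) and Col6a1 (1.07); scaled by spike-ins, Col27a1 was slightly higher in replicate 1. Col12a1 and Col25a1 were the other genes higher in replicate 1, with folds of 0.933 and 0.737 and intervals that held 1; by deposited TPM, Col12a1 was slightly higher in replicate 2. No molecular identifiers are recorded, so copies of 1 molecule may be counted apart, and all intervals here stand for counting error alone.

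A difference of at least 1.5-fold toward replicate 2 was seen in 5 of the 35 genes (14.3%), beside 4.57% of all genes tested, and toward replicate 1 in 0 of 35, beside 2.54%. All 5 had under 100 counts on average, and 0 passed with a minimum of 100. At 25% or more, 10 genes were higher in replicate 2, beside 15.4% of all genes tested, and 2 genes in replicate 1, beside 9.14%. Col4a6 had 59 and 114 counts (fold 1.83), and Col17a1, the hemidesmosome collagen, had 11 and 30 counts (2.38). Col6a6 and Col6a5, whose split of reads is uncertain, had folds of 1.70 and 1.65. Col9a3 had 21 and 34.7 counts (1.55), with an interval of 0.907 to 2.90, and on the TPM scale it was slightly lower in replicate 2. Of these 5 genes, only Col9a3 had an interval that held 1.

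**Figure D5:**
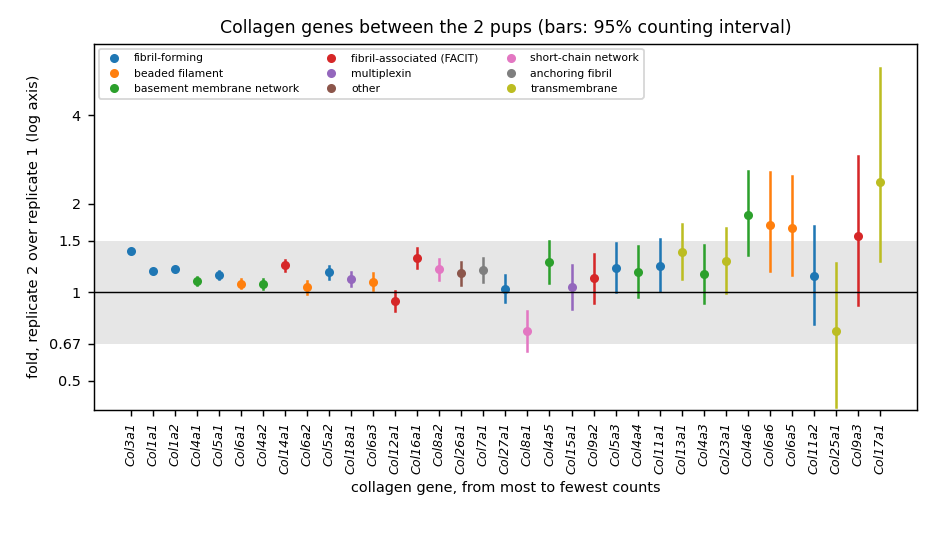
Fold of replicate 2 over replicate 1 (TMM-scaled counts, log axis) for the 35 collagen genes tested, ordered from most to fewest counts and colored by class. Bars are 95% exact counting intervals, the gray band spans 1.5-fold in either direction, and the genes outside it are all at the low-count end.

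Markers of several cell types moved with the libraries. All 6 fibroblast markers were higher in replicate 2, beside 51.1% of all genes tested, with a median fold of 1.38. Dcn, at 65.3 and 112 TPM, made up most of their sum of 98.9 and 160 TPM. Thy1, at 0.66 and 1.05 TPM, was below the detection level in replicate 1. The 3 spleen mesenchyme markers (median fold 1.24; summed 144 and 180 TPM) and the 6 endothelial markers (1.14) were also higher there. Smooth muscle and mural markers were split, with 3 of 7 higher in replicate 2 (Des, Rgs5 and Cspg4) and 2 of 7 at least 1.5-fold higher in replicate 1 (Acta2 and Cnn1), beside 2.54% of all genes tested. Their sum of 389 and 306 TPM was mostly Acta2, at 273 and 201. Mesothelial markers summed to 149 and 169 TPM, but only 3 of 5 were higher in replicate 2 and the median fold was 1.02. Markers of neighboring organs were higher in replicate 1: the exocrine pancreas list summed to 846 and 298 TPM, with 5 of 5 genes tested at least 1.5-fold higher, and the liver list to 27.3 and 12.4 TPM, with 3 of 3, again beside 2.54% of all genes tested. In the pancreas list Ptf1a and Pnlip had 0.16 and 0.11 TPM in replicate 1 and 0 in replicate 2. The erythroid pair summed to 1223 and 1152 TPM, and the leukocyte marker Ptprc had 30.4 and 45.0. Adipocyte and Schwann cell lists had no gene detected in both libraries (0.47 and 0.72, and 0.93 and 0.94 TPM in sum), and 3 of 4 skeletal muscle markers were detected (30.9 and 32.6 TPM). The part of these cell types in the collagen differences was not tested.

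Most listed genes for making, secreting, processing and degrading collagen were detected. In 8 lists 73 of 90 pathway genes reached 1 TPM in both libraries, beside 55.6% of all protein-coding genes. Of 85 genes tested, 6 were at least 1.5-fold higher in replicate 2, beside 4.57% of all genes, and 0 in replicate 1. For folding and modification in the endoplasmic reticulum, 17 of 19 genes were detected. The highest were the prolyl isomerase gene Ppib (241 and 246 TPM), the general chaperone gene Hspa5 (236 and 243) and P4hb, a subunit of prolyl 4-hydroxylase (185 and 218). Serpinh1, the collagen-specific chaperone, had 119 and 147 TPM and was named outside the rule for its role. The prolyl 3-hydroxylase family gene P3h3 had 268 and 434 counts (fold 1.55). Colgalt2, with 25 and 55 counts (2.03), passed 1.5-fold at low counts and was named after its value was seen.

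All 8 secretion genes matched were detected, led by the COPII coat genes Sec13 (93.8 and 96.8 TPM) and Sar1b (59.4 and 61.9) and by the cargo receptor gene Mia2 (40.4 and 43.6). Propeptide processing had 3 of 8 genes detected: Pcolce, an enhancer of the C-propeptide protease, at 52.6 and 64.9 TPM, the protease gene Bmp1 at 14.7 and 20.0, and the N-propeptidase gene Adamts2 at 10.1 and 13.3. Of the crosslinking oxidases 4 of 5 were detected, led by Loxl1 (48.3 and 60.6 TPM), Lox (23.0 and 24.6) and Loxl2 (8.32 and 7.91). These lists held no gene past 1.5-fold, and their median folds were 0.953 for secretion, 1.14 for propeptide processing and 0.971 for crosslinking.

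Fibril-associated proteins had 12 of 13 genes detected. The matricellular gene Sparc stood at 908 and 1106 TPM, near the sum of the whole collagen family, followed by the small proteoglycan genes Dcn (65.3 and 112 TPM) and Bgn (73.6 and 84.3). Dcn (fold 1.56), which is also in the fibroblast list, and the tenascin gene Tnxb (655 and 1084 counts, 1.59) were past 1.5-fold, beside 4.57% of all genes tested. At any size, 11 of the 12 genes tested were higher in replicate 2, beside 51.1% of all genes tested. Of the collagen receptors 11 of 13 were detected, led by the integrin beta subunit gene Itgb1 (99.1 and 112 TPM), Adgrg1, a receptor for type III collagen (31.0 and 32.4), and Ddr1, a collagen-binding tyrosine kinase (11.8 and 15.9).

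The degradation list had 8 of 11 genes detected. Among these were Timp1, Timp2 and Timp3, which encode inhibitors of metalloproteinases and not degrading enzymes. The gelatinase genes Mmp9 (78.4 and 108 TPM) and Mmp2 (71.2 and 98.8) and the neutrophil collagenase gene Mmp8 (71.1 and 97.98) were highest, and each was higher in replicate 2, with a fold of 1.26 for Mmp2. Mmp1a was listed at 0 in both libraries. Fap passed 1.5-fold with 12 and 47 counts (3.38) and was named after its value was seen. Of the regulators of collagen transcription 10 of 13 were detected, led by Smad2 (13.4 and 13.2 TPM) and Smad4 (6.82 and 9.26), which carry the signal of transforming growth factor beta, and by its ligand gene Tgfb1 (10.8 and 12.5). The early growth response gene Egr1 had 130 and 255 counts (fold 1.87).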

How the data were processed

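Each spleen has 1 table of genes and 1 of transcripts, which the authors made on GRCm38 (mm10, per the labels). GENCODE M4 models are named in the text deposited beside them. The sources used here name no aligner, software version or strand setting. The authors deposited estimated counts, which divide reads shared by several features, together with their posterior SD, and deposited TPM (with a posterior mean TPM), which are relative to all features including spike-ins. Symbols and gene types came from GENCODE M21: 42462 of 43346 identifiers matched. The transcript tables also hold, per the file headers, the percent of a gene's level in each transcript, as deposited by the authors. Shares printed here were recomputed from TPM or counts.

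Levels are the deposited TPM in each library, with detection at 1 TPM in both. For differences, estimated counts were rounded and scaled by TMM over all genes with edgeR 4.0.16 under R 4.3.3; log2 CPM used a prior count of 2, and genes entered from a mean count of 20. The code was tested on simulated data. DESeq2 1.42.0 size factors, library size, spike-ins and TPM were alternatives. Whether opposite-strand genes share reads with 10 collagen genes whose exons they overlap is not known.

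Genes with a mean of at least 5 TPM, those past 1.5-fold and the 5 closest to equal between libraries were named. The rule for transcripts was genes of at least 20 TPM and Col18a1, but only those of Col3a1, Col1a2, Col5a1 and Col18a1 were named under it. Transcripts of Col6a3, Col12a1, Col7a1, Col11a2 and Col4a4 were added after their values were seen. Of each pathway list the 3 highest genes and those past 1.5-fold with at least 100 counts were named; all other collagen genes are given by level. Members and lists were chosen with earlier results of these data known. The design compares no conditions, so nothing was tested for significance.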

Additional observations from a re-analysis of the deposited data

How the results depend on the processing

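No paired analysis was possible because the series holds 1 group. Several class shares moved by more than the spread between libraries under other measures; the multiplexin share did not under any measure, nor the fibril-forming, beaded filament, basement membrane and short-chain shares by posterior mean TPM. By estimated counts they were 76.3% fibril-forming, 6.70% beaded filament, 8.39% basement membrane, 4.55% FACIT, 0.961% short-chain, 0.609% other, 0.542% anchoring fibril and 0.219% transmembrane. By posterior mean TPM, FACIT was 6.12%, other 1.29%, anchoring fibril 0.465% and transmembrane 0.384%. By long coding transcripts, chosen after the data were seen, basement membrane was 7.34%, FACIT 3.39%, other 1.28%, short-chain 1.26%, anchoring fibril 0.329% and transmembrane 0.260%. Mean chain ratios without length were 1.41 for Col1a1 to Col1a2, 1.60 for Col4a1 to Col4a2, 2.18 for Col5a1 to Col5a2, 1.55 for Col6a1 to Col6a2 and 2.95 for Col6a1 to Col6a3. Col1a1 to Col1a2 was 1.28 by coding and by long coding transcripts, Col5a1 to Col5a2 was 1.70 by the latter, and Col6a1 to Col6a3 was 2.90 by posterior mean TPM, 6.65 by coding and 7.58 by long coding transcripts. The 5 genes at least 1.5-fold higher in replicate 2 became 0 with a mean count of at least 100, 10 at a threshold of 25% higher and 1 at 2-fold. For replicate 1 the count of 0 became 2 at 25% higher. Under every scaling tried 31 or 32 of 35 genes were higher in replicate 2, although the median of all genes was -0.11 by library size and -0.14 by TPM on the log2 scale (replicate 1 over 2), beside -0.0069 as reported. On that scale 4 genes changed sign: with deposited TPM, Col9a3 from -0.63 to 0.073, Col4a4 from -0.23 to 0.14 and Col12a1 from 0.099 to -0.032, and with spike-ins, Col27a1 from -0.040 to 0.012. The cause was not tested. With 2 libraries, SDs are imprecise, and genes of under 100 counts are limited by counting error.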

Other observations

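Some low collagen genes differed between the libraries in their transcripts more than in their counts. Col7a1, with 782 and 970 counts, was led by Col7a1-202 in replicate 1 (60.4% of TPM) and by Col7a1-201 in replicate 2 (71.8%), coding transcripts of 9250 and 9198 nt. Col11a2 had 53 and 63 counts, yet its TPM was 0.28 and 0.86 and a retained-intron model of 836 nt was listed at 0 in replicate 1 and at 66.3% of TPM in replicate 2. In Col4a4 the retained-intron model Col4a4-202 held 60.8% and 37.2% of TPM, and the gene was lower in replicate 2 by TPM (1.26 and 1.13) but higher by counts (184 and 225).

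Exons of 12 collagen genes overlap another gene in GENCODE M21, 10 of them on the opposite strand. The longest overlap was 563 nt, between Col4a3 and the non-coding C430014B12Rik, which had 1.61 and 1.57 TPM. Col9a3 overlaps Tcfl5 by 234 nt, and Tcfl5 had 0 and 0.05 TPM. Of the 44 collagen genes, 39 had a posterior SD of 0 for their counts in both libraries.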
